A study of Mus musculus with 8 samples.

Results

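Wide intergenic regions at enhancer distance were 1505 of the 76872 accessible regions of the atlas (1.96%). The atlas is the deposited list of regions open to the Tn5 transposase in mouse FUCCI2 induced pluripotent stem cells, a clonal line that carries a pair of fluorescent cell cycle reporters. The members were chosen by width and position: a region had to be 700 bp wide or more, share no base with a protein-coding gene, and lie more than 10 kb and at most 200 kb from the nearest outer limit of such a gene. The 8 libraries formed 4 groups with replicates A and B in each. They were mitotic cells shaken off after 6 hours in nocodazole (200 ng/ml), such cells given 1 or 3 hours in medium without the drug, and an asynchronous culture never exposed to it. Cultures were kept on irradiated feeders in KO-DMEM with FBS, LIF and the 2i pair, which blocks MEK and GSK3. A library was made from the nuclei of 50000 cells. Whether replicates were separate cultures was not stated. The list has 1 set of coordinates for the whole series and no value per library, so the members describe where chromatin was open in the series and not at which time after mitosis. The depth of the libraries is unknown.

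Enhancers are stretches of regulatory DNA that bind transcription factors and act on promoters that can lie far away on the same chromosome. Factor binding displaces nucleosomes, and the exposed DNA is what the transposase cuts. Most accessible DNA between genes is thought to be enhancer or insulator sequence, but starts of long noncoding RNA (lncRNA) genes and of small RNA genes are accessible too. In pluripotent cells, distal enhancers near genes such as Sox2, Klf4 and Nanog are bound by the factors that maintain the undifferentiated state. Position and width alone do not show that a region is an enhancer.

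Some of the members held an annotated lncRNA start, and for these the RefSeq start window (250 bases before the start and 50 after it, GRCm38.p6) gave the sequence. The 7 windows below lay wholly inside members and were picked after their values were seen, to show CpG-rich and CpG-poor starts and starts next to genes described further on. Capitals mark matches, on either strand, to the short motifs listed with the lncRNA results. They run 5′ to 3′ on the strand of the lncRNA.
Tunar, chr12:105336344-105336643, plus strand: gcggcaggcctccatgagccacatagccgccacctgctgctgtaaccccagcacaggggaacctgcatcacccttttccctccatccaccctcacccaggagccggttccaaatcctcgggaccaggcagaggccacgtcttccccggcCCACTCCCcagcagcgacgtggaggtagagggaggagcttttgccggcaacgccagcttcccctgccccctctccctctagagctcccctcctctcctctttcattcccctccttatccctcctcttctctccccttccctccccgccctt
Snhg5, chr9:88522848-88523147, minus strand: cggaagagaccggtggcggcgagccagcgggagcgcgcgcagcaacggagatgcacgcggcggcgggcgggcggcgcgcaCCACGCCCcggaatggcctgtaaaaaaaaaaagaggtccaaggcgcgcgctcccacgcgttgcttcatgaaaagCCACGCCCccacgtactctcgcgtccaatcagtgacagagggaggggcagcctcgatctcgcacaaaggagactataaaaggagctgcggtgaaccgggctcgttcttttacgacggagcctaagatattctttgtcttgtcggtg
Rab10os, chr12:3235541-3235840, plus strand: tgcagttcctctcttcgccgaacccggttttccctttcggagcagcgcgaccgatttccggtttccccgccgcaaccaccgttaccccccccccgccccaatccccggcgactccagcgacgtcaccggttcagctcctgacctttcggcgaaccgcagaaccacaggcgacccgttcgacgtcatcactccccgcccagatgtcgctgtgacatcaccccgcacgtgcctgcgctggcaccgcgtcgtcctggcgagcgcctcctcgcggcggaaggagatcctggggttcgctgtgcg
Gm35208, chr12:12987131-12987430, plus strand: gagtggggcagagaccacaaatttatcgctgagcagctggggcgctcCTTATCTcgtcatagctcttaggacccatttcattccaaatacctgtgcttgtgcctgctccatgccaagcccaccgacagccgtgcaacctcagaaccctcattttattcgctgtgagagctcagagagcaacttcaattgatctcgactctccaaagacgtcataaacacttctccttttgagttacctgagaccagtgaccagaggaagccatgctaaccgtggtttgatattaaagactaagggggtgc
Platr22, chr1:136695961-136696260, plus strand: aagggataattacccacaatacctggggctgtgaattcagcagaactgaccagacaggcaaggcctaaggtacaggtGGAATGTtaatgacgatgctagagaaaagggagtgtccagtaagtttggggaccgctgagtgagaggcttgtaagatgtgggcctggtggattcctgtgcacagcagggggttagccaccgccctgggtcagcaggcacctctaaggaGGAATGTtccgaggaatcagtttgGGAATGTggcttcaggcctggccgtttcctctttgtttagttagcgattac
Gm30684, chr7:38061311-38061610, minus strand: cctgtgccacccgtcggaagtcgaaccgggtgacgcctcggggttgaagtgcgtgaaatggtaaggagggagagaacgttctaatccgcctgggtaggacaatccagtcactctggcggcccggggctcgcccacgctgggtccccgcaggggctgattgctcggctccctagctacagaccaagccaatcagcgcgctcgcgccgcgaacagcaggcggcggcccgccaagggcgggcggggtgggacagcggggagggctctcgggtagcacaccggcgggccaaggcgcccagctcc
Gm30771, chr7:38061030-38061329, plus strand: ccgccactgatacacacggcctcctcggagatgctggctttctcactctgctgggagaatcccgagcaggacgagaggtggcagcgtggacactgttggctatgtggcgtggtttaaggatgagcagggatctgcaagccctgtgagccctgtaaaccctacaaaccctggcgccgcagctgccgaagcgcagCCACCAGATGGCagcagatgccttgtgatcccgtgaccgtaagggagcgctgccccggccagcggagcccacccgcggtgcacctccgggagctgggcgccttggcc
The windows differed widely in CpG content. The ratio of observed to expected CpG was 1.26 for Snhg5 and 1.22 for Rab10os, with 36 and 39 CpG in 300 bases, but 0.315 for Platr22 with 6 CpG. The windows shown for Tunar and Gm35208 lay between, at 0.421 and 0.491. Tunar has a further start in the same member, whose window had a ratio of 0.833 with 30 CpG. Tunar is a lncRNA with a role in pluripotent cells and neural differentiation, Snhg5 a host gene of small nucleolar RNAs, and Platr22 one of a series of pluripotency-associated transcripts. Gm35208 started in a member 45 kb from Mycn, and Gm30684 and Gm30771 started on opposite strands of a member 36.3 kb from Ccne1. The window of Gm30771 held a match to the CTCF motif, that of Platr22 held 3 Tead matches, and that of Snhg5 held 2 Klf matches.

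The members were the wide end of a continuous distribution. Of the 19500 regions at this distance from coding genes, they made up 7.72% (95% Wilson interval 7.35 to 8.10%) and held 22.2% of the accessible base pairs, 1.40 Mb against 4.89 Mb in the 17995 narrower regions. Members had a median width of 857 bp, with quartiles of 766 and 1009 bp, and the narrower regions one of 233 bp. A width under 800 bp was found for 537 members (35.7%) and one of at least 800 but under 1000 bp for 579 (38.5%). Only 41 reached 1500 bp, and 7 of these reached 2000 bp. Among all 9803 atlas regions of 700 bp or more, 7037 touched a coding gene, 615 lay outside genes but within 10 kb, and 646 lay beyond 200 kb. The limits fell inside a continuum. At the width limit, 9 members were exactly 700 bp wide and 3 regions just outside it were 699 bp wide, the latter nearest to Sox9, Gbp6 and Ndufa4. The members just inside it included those nearest to Spats2l, Phlda1 and Spns3. At the lower distance limit, members lay 10002, 10025 and 10028 bp from Trp53i11, Sprr2a2 and Dipk1c, and wide regions just outside lay 9946, 9962 and 9977 bp from Fam43b, Gm10354 and App. At the upper limit, members lay 199301, 199391 and 199546 bp from Apob, Pkia and Cyria, and the next wide regions lay 200261, 201031 and 201719 bp from Bmp2, Mageb18 and Trim52.

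The share of wide regions was larger farther from genes. It was 6.79% (336 of 4950, interval 6.12 to 7.52%) at 10 to 20 kb, 7.32% at 20 to 50 kb, 7.94% at 50 to 100 kb and 9.47% (338 of 3570, interval 8.55 to 10.5%) at 100 to 200 kb. The intervals of the nearest and the farthest class did not overlap, while those of neighbouring classes did. Members themselves did not widen with distance: their medians in the 4 classes were 860, 850, 871 and 854 bp. Intervals here and below cover counting error only, and neighbouring regions are not independent. No test was made of any difference between regions, and the shares describe this atlas.

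**Figure D1:**
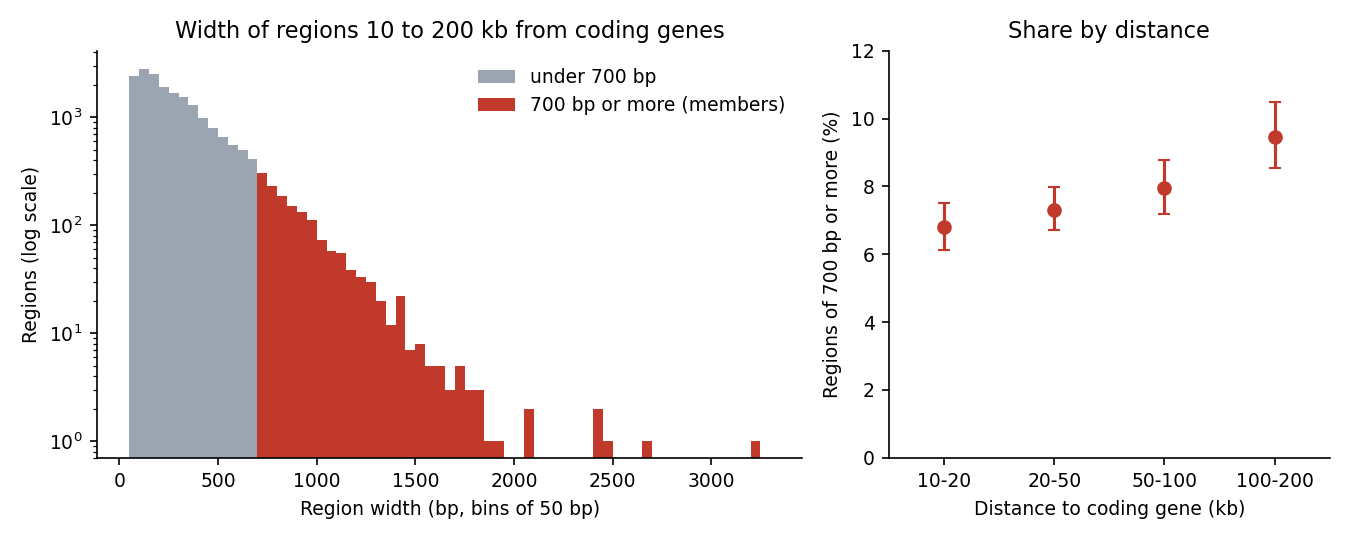
Left, number of atlas regions 10 to 200 kb from coding genes (log axis) by width in bins of 50 bp, with the 1505 members in red and the 17995 narrower regions in grey. Right, percentage of regions of 700 bp or more in 4 classes of distance with 95% Wilson intervals. The widths fall off without a break at 700 bp, and the share is 6.79% in the nearest class and 9.47% in the farthest.

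Members lay on all 21 chromosomes, with the X standing above the autosomes in share. On the X, 103 of 927 regions at this distance were wide (11.1%, interval 9.25 to 13.3%). On the 19 autosomes it was 1396 of 18458 (7.56%, interval 7.19 to 7.95%), from 6.12% on chromosome 10 to 8.94% on chromosome 1. The X interval lay above that of the autosomes together, but overlapped the intervals of single autosomes such as chromosomes 1 and 7. Members per Mb were 0.603 on the X, inside the autosomal range of 0.462 to 0.733. The density of regions of any width on the X was 5.42 per Mb, below the 5.95 of chromosome 14, the lowest autosome. The larger share on the X was seen far from genes. At 10 to 20 kb the X held 3.27% of members and 3.84% of narrower regions. At 20 to 50 kb it held 4.6% against 3.88%, and in both classes the intervals overlapped. At 50 to 100 kb it held 9.63% of members (interval 6.97 to 13.2%) against 4.86% (4.24 to 5.56%). At 100 to 200 kb it held 10.7% (7.79 to 14.4%) against 6.59% (5.79 to 7.5%). The Y held 6 members among 115 regions (5.22%, interval 2.41 to 10.9%).

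**Figure D2:**
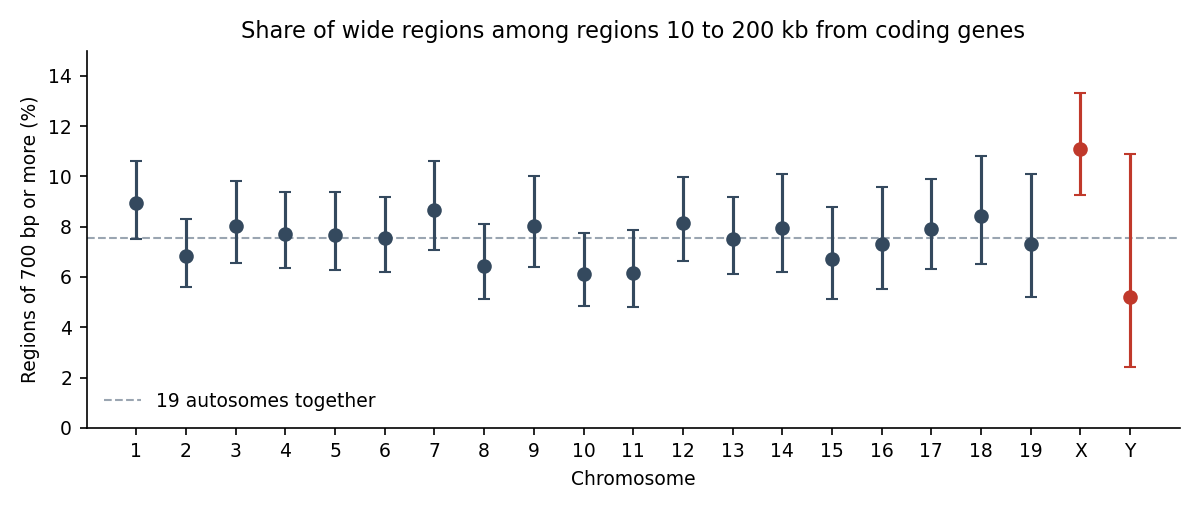
Percentage of regions 10 to 200 kb from coding genes that were 700 bp wide or more, by chromosome, with 95% Wilson intervals and a dashed line at the 7.56% of the 19 autosomes together. The X, in red, sits at 11.1%, above each of the 19 autosomes.

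The 20 widest members, from 1706 to 3218 bp, had a pseudogene as their nearest noncoding gene in 11 cases (55%, interval 34.2 to 74.2%), a lncRNA in 7 and a snoRNA in 2, and 4 were on the X. Over all members a pseudogene was the nearest in 590 of 1505 (39.2%, interval 36.8 to 41.7%), and over narrower regions in 33.4% (interval 32.7 to 34%). The interval of the 20 widest included the share of all members, and the nearest pseudogene lay up to 239 kb away. The widest, of 3218 bp at chr1:24612854-24616071, touched the pseudogene Gm10925 and lay 24.9 kb beyond the start of Col19a1, a collagen gene. This stretch of chromosome 1 is known as a nuclear copy of mitochondrial DNA. The placement of reads that match more than 1 copy was not described in the sources used here. A pair of members on chromosome 15 followed, of 2677 bp 45 kb from Smgc, a salivary mucin-like gene, and of 2468 bp 57.8 kb from Cntn1, a neural adhesion molecule. Next were 2416 bp near Mageb5 on the X and 2414 bp near 4930467E23Rik on chromosome 8, then 2082 bp near the histone variant gene H2ab1 on the X and 2059 bp near Speer4f2 on chromosome 5. None of these 7 lay in a crowded window, defined as 100 kb that held 20 or more atlas regions.

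Below 2000 bp, one of 1810 bp lay 117 kb beyond the start of Sox4, an HMG-box transcription factor, with no other region within 50 kb. One of 1723 bp lay 181 kb from Hes1, a target of Notch signalling, and 4.74 kb from the lncRNA Gm52263. One of 1900 bp lay 186 kb from Map3k7, which encodes the kinase TAK1, and one of 1742 bp lay 15.6 kb from LOC115489489 and 3.64 kb from the lncRNA Platr29. The others of the 20 had Pisd, Slitrk2, Rab3c, Itm2a, Hnmt, Gm2128, Grxcr1, Zfp958 and Ccdc54 as their nearest coding genes, with widths between 1706 and 1856 bp. Those near Rab3c, Zfp958 and Ccdc54 touched the lncRNA genes Gm32881, Gm6410 and G730013B05Rik.

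Core pluripotency genes had 15 members, shared among 11 of the 32 genes listed. These genes had 160 regions at this distance, so 9.38% were wide (interval 5.76 to 14.9%), and that interval includes the 7.72% of all regions at this distance. The members were 719 to 1175 bp wide with a median of 864 bp, close to the median of all members, and lay 10.8 to 194 kb away. Gene starts and far ends were told apart where RefSeq start windows gave a strand: 5 members lay beyond a start, 2 beyond a far end and 8 were near genes without a strand here.

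Among the transcription factors that hold naive pluripotency, Klf5 and Tbx3 had a pair of members each on 1 side. Those near Klf5 were 833 bp at chr14:99324252-99325084 and 906 bp at chr14:99339677-99340582, at 10.8 and 26.3 kb, in a neighbourhood with 11 and 10 other regions within 50 kb. Those near Tbx3 were 871 and 838 bp wide at 24.8 and 35.8 kb. Klf4, a zinc finger factor used in reprogramming, had a single member of 822 bp at chr4:55463820-55464641, 62.5 kb beyond its far end, while 10 further regions at this distance from Klf4 were narrower. Nanog had one of 744 bp at chr6:122689803-122690546, 16.9 kb beyond its start, with 14 other regions within 50 kb. Zfp42, which encodes the marker Rex1, had one of 879 bp 13.5 kb beyond its start. Prdm14, a repressor of differentiation genes, had one of 864 bp at 28.1 kb, and the nuclear receptor gene Nr5a2 had one of 983 bp 90.5 kb beyond its start.

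The widest members of the list belonged to Mycn, a Myc family gene. One of 1175 bp at chr12:12787692-12788866 lay 147 kb beyond its far end, and one of 1010 bp at chr12:12986805-12987814 lay 45 kb beyond its start and held the start of the lncRNA Gm35208, whose sequence is printed above. Tet2, an enzyme that oxidises methylated cytosine, had one of 832 bp at 96.7 kb, and Fbxo15, a marker of pluripotent cells, one of 719 bp at 194 kb. The other 21 genes were the nearest coding gene of no member. For Sox2 this was not for lack of regions: 19 lay at this distance, but the widest was 636 bp, 73.5 kb away. Jarid2 and Sall1 had 10 each, the widest of 696 and 546 bp, the former 4 bp short of the limit. Dppa3 had 3, up to 682 bp. Pou5f1, Esrrb and Tet1 had 1 each, of 276, 111 and 124 bp, and Tdgf1, Utf1, Klf2 and Gdf3 had none. A member lay within 200 kb of 16 of the 32 genes when the nearest gene did not have to be the listed one.

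The other lists were described in the same way. Over all 12 lists, 54 of 635 regions nearest to a listed gene were wide (8.50%, interval 6.58 to 10.9%). By list the share ran from 0 to 13%, on 11 to 160 regions each, and each interval included 7.72%. Signalling genes had 9 members among 87 regions. The widest lay beyond the start of Jak1, the kinase that signals from the LIF receptor, and was 1256 bp at 26.9 kb. Smad7, an inhibitor of TGF-beta signalling, had one of 1188 bp at 24 kb, and Pim1, a kinase gene regulated by Stat3, one of 899 bp at 39 kb. Chromatin architecture genes had 6 members among 46 regions, near 6 genes. Wapl, which releases cohesin from DNA, had one of 1347 bp 10.3 kb beyond its start, and Hmga2 and the cohesin regulator Pds5a had members of 901 and 874 bp at 46 and 25.9 kb.

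Immediate early genes, which respond quickly to growth signals, had 5 members near 5 genes. That near Jun was 1098 bp wide, 109 kb beyond the start and inside the lncRNA gene Junos. That near Atf3 was 1013 bp wide at 40.6 kb, and that near Ier5 872 bp at 12.6 kb. Both held the start of a lncRNA, D730003I15Rik and Gm9530. Of the cell cycle genes, Ccne1, which encodes cyclin E1, had members of 1129 and 874 bp at 12.2 and 36.3 kb beyond its far end, and Ccnd1 had one of 703 bp at 94.2 kb. Housekeeping genes had 2, of 1070 bp near Eef1a1 and of 957 bp near Actb. The latter lay in a crowded window with 22 other regions within 50 kb.

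Lineage regulators that define differentiated layers had members too. Trophoblast factors had 5, with Tead4 at 1203 bp and 25.9 kb, Tfap2a at 994 bp and 63.8 kb and Tfap2c at 901 bp and 85 kb as the widest. Among ectoderm and neural genes, Neurog1 had one of 1184 bp at 28.2 kb and Zic1 one of 972 bp at 95.8 kb. Mesoderm genes had members near Eomes (891 bp, 88 kb), Msgn1 (857 bp, 20.2 kb) and Hand2 (749 bp, 28.9 kb). Endoderm genes had 3, of 990 and 701 bp near Sox17 and of 806 bp near Gata6. No member had a feeder fibroblast gene as its nearest coding gene, among 41 regions at this distance from such genes, which allows a share of up to 7.32% by 3 counts of the total (Wilson interval 0 to 8.57%). These bounds fall on either side of the 7.72% of all regions at this distance, so no lower share is read from the count. No member had an adult tissue gene, among 11 regions, which allows up to 27.3% by 3 counts of the total (Wilson interval 0 to 25.9%).

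Members were spread over many genes. The 1505 had 1258 different nearest coding genes, and 1063 of these genes had a single member, 162 had 2 and 33 had 3 or more. Among the 10 genes with the most, Gm15319 on chromosome 8 with 9, Gm14410 on chromosome 2 with 7 and Gm17019 on chromosome 5 with 4 are predicted genes in neighbourhoods where pseudogenes or crowded windows were common. Of the members near Gm15319, 5 touched a pseudogene and 3 lay in crowded windows, and all 4 near Gm17019 lay in crowded windows. Over all members, 36 (2.39%) lay in such windows, a share similar to the 2.46% of narrower regions.

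The remaining genes with 4 or 5 members had none in a crowded window. Tgif1, a homeobox repressor in TGF-beta signalling, had 4 of 934, 703, 858 and 719 bp within 28.7 kb, all beyond its start at 11.2 to 39.2 kb, with 12 or 13 other regions within 50 kb of each. Tcte2 had 5, of 790 to 1245 bp at 32.3 to 165 kb, of which 3 touched a lncRNA gene. Cbln4, a secreted synaptic protein, had 4 of 786 to 1579 bp among only 6 regions at this distance, all beyond its far end. Mettl4, a DNA and RNA methyltransferase gene, had 4 of 710 to 932 bp, and Tlr4, an innate immune receptor, 4 of 717 to 997 bp. Gm52433 and Gm52435 on the X had 4 each, among 8 and 7 regions at this distance.

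Members were slightly more isolated than narrower regions. Another atlas region lay within 10 kb of 772 members (51.3%, interval 48.8 to 53.8%), against 58.1% of narrower regions (interval 57.4 to 58.8%). The order held in each distance class, from 61.3% against 66.0% at 10 to 20 kb to 36.4% against 44.3% at 100 to 200 kb. By width, the share with a neighbour was 59.4% under 300 bp, 55.1% from 500 to below 700 bp, 52.1% from 700 to below 1000 bp and 49.4% from 1000 to below 1500 bp. Another member lay within 10 kb of 117 members (7.77%) and within 50 kb of 327 (21.7%), with at most 4 others.

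Counted by region, the nearest coding gene was open at an end slightly less often for members than for narrower regions. Counted by gene, the shares were alike. At least 1 end of the nearest coding gene had an atlas region within 1 kb for 66.3% of members (interval 63.9 to 68.7%). For narrower regions the share was 70.4% (interval 69.8 to 71.1%). Members were lower at 10 to 20 kb (61.0% against 67.7%), 20 to 50 kb (67.6% against 72.2%) and 50 to 100 kb (64.6% against 71.6%). At 100 to 200 kb they were higher, at 71.6% against 69.8%. With each gene counted once, the shares were 65.7% of 1258 genes and 66.0% of 6470 genes. Over all 21887 coding genes the share was 62.0%. A strand was known for the nearest gene of 1172 members, and 613 of these (52.3%, interval 49.4 to 55.2%) lay beyond the gene's start rather than its far end, against 55.1% of narrower regions (interval 54.3 to 55.9%).

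Part of the members met a gene of another type. A noncoding gene or pseudogene was touched by 375 (24.9%) and lay within 1 kb of 402 (26.7%, interval 24.5 to 29.0%), against 21.5% and 24.8% of narrower regions. A wide region touches more features by its width alone. lncRNA genes accounted for most, with 292 members (19.4%) against 17.7% of narrower regions, and 52 members (3.46%) touched a pseudogene against 2.78%. Several of the noncoding genes touched have known roles. A member of 1156 bp at chr12:109542572-109543727 lay within Meg3, the maternally expressed lncRNA of the Dlk1 to Dio3 imprinted domain, 21.2 kb from Rtl1. On the X, members of 736 and 717 bp lay in Tsix, the antisense partner of Xist, and the second also lay in Xist, which silences the X. Dleu2 held members of 1468 and 808 bp, and the host genes Mir124a-1hg and Mir124-2hg of the neural microRNA miR-124 held 728 and 826 bp. Members also touched Hdnr next to Hand2, Lncpint, Snhg17 and Dancr. These genes were picked for mention after their values were seen.

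The starts of lncRNA genes inside members were comparatively rich in CpG. RefSeq starts of 86 lncRNA genes lay in 79 members (5.25%, interval 4.23 to 6.49%), against 261 narrower regions (1.45%, interval 1.29 to 1.64%). Per Mb of region there were 70.2 starts in members and 58.1 in narrower regions, where several starts of 1 gene count separately. Regions that held a start numbered 56.6 and 53.4 per Mb, a much smaller gap than that between the shares. A window was assigned by its start base alone. Of the 98 windows in members, 71 lay wholly inside. Of the 261 narrower regions with a start, 106 were under 300 bp and could not hold a whole window. The sets thus differ in how much of each window was accessible. The 98 start windows in members had a median ratio of observed to expected CpG of 0.569 (quartiles 0.336 and 0.798). The 284 in narrower regions at this distance had 0.341 (0.211 and 0.500), and 4585 windows in no region had 0.202 (0.110 and 0.325). Starts of coding genes, over 21263 windows, had 0.567, with quartiles of 0.226 and 0.827. A ratio of at least 0.6 was found in 43.9%, 18%, 3.56% and 47.7% of the 4 sets. Median GC contents were 55.2%, 52.0%, 46.7% and 56.3%. Of the windows printed above, that of Platr22 thus lay below the lower quartile of its set and those of Snhg5 and Rab10os above the upper. Some genes have several windows that overlap, so windows are not independent. With the mean of each gene's windows, the medians were 0.569 over 86 genes in members and 0.344 over 268 genes in narrower regions.

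**Figure D3:**
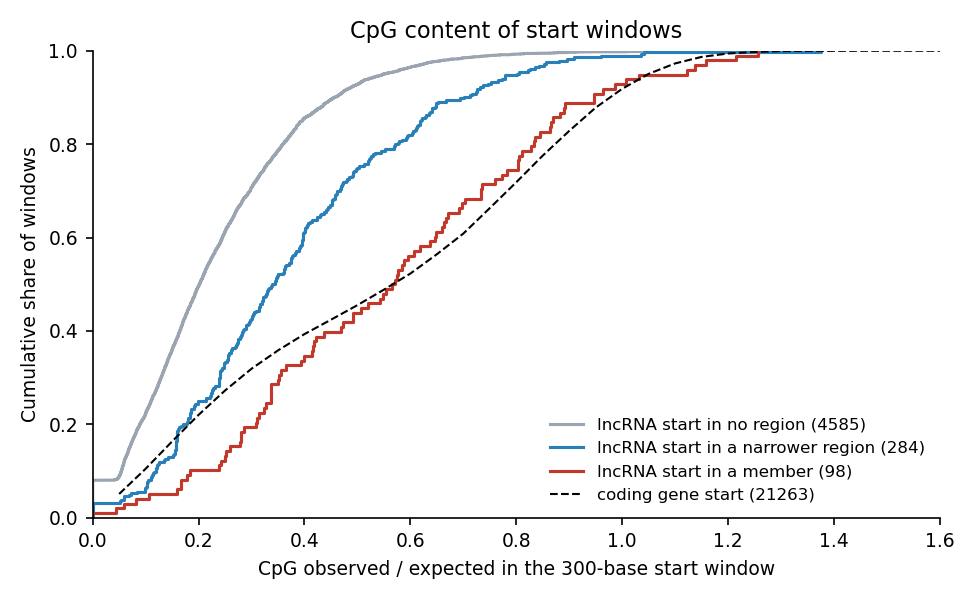
Cumulative share of 300-base start windows by the ratio of observed to expected CpG, for lncRNA starts 10 to 200 kb from coding genes in members (98), in narrower regions (284) and in no region (4585), and for coding gene starts (dashed). Medians are 0.569, 0.341, 0.202 and 0.567, and the curve of members lies right of that of narrower regions.

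Starts lay on average toward the middle of the region. The median distance of a start from the centre of its member was 166 bp, which is 34.3% of the way from the centre to the edge, and 66 of 98 (67.3%) lay within 250 bp of the centre. A band of 250 bp on each side takes in much of a typical member, and this share was not set against an even placement. The 98 starts came from 86 genes in 79 members, so they are not independent. Along the direction of transcription, 51 starts (52%) lay before the centre. In 7 members starts of 2 genes were found on opposite strands, 8 to 133 bp apart. These distances are between the closest starts of the 2 genes, some of which have several. The outer limits of the genes were apart in 4 of the 7 members and overlapped in 3. The closest starts, of Gm29418 and Gm4718, lay 8 bp apart in a member of 1448 bp whose nearest coding gene was Six2, a homeobox gene of kidney progenitors, and the limits of these genes overlapped. So did those of Gm31676 and LOC115487949, in a member of 758 bp with Ywhaq as its nearest coding gene. In the member 36.3 kb from Ccne1, Gm30684 and Gm30771 started 80 bp apart with overlapping limits, and the windows printed above overlap at their 3′ ends on opposite strands.

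**Figure D4:**
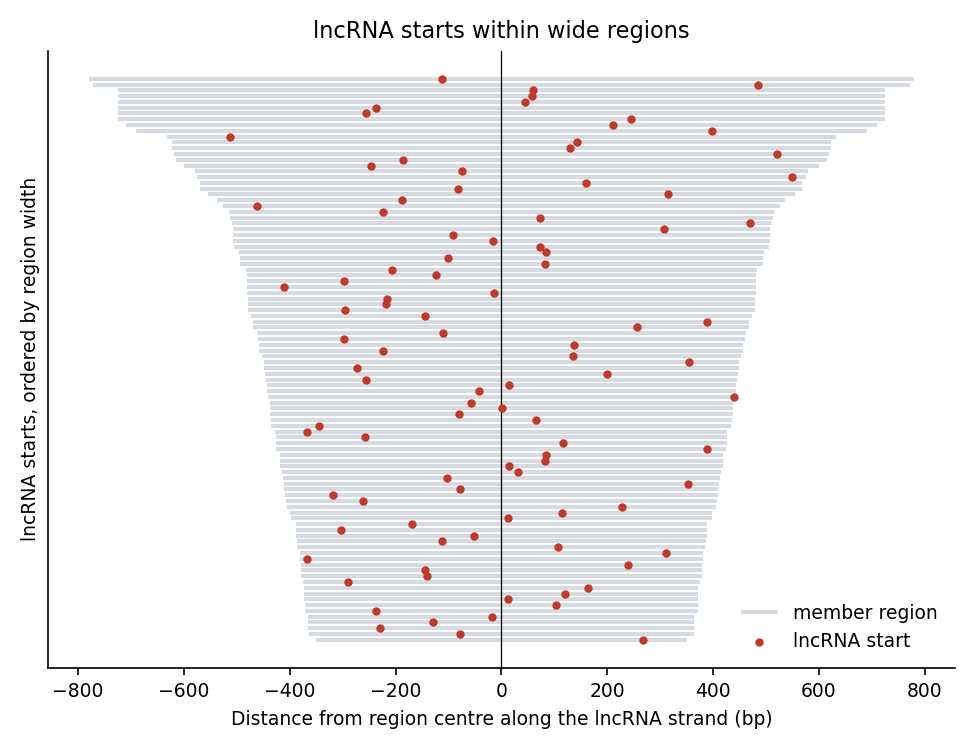
Each grey bar is a member drawn around its centre to the scale of its width in bp, 1 bar for each of the 98 lncRNA starts it holds, ordered by width. Red points mark the start, with positive values along the strand of the lncRNA. Of the points, 66 lie within 250 bp of the centre line.

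The motif matches in these windows are a description of letters and not of binding. The octamer of POU factors such as Oct4 was searched as ATTTGCAT on both strands, as were all others. Sox factors were represented by ACAATGG. The Klf motif was GGGNGTGG and the Esrrb motif TCAAGGTCA. For AP-1, the dimer of Jun and Fos, the letters were TGANTCA. Stat factors were represented by TTCCNGGAA. For the insulator protein CTCF a spaced core of its motif was searched. The letters for GATA factors were AGATAAG. Tead factors were represented by ACATTCC. Matches to different motifs were counted separately, also where they overlapped. Over all 32851 RefSeq start windows of the same length, shares were 1.74% for the octamer, 3.66% for Sox, 17.6% for Klf, 0.423% for Esrrb, 7.81% for AP-1, 1.15% for Stat, 3.04% for GATA, 3.85% for Tead and 2.43% for CTCF. In the 98 windows in members, the Klf motif was found in 18 (18.4%), AP-1 in 10 (10.2%), Tead in 8 (8.16%) and the octamer in 4 (4.08%). Sox and Stat were found in 2 windows each and GATA and CTCF in 1 each. The Esrrb motif was found in none, which allows up to 3.06% by 3 counts of the total (Wilson interval 0 to 3.77%). The 95% interval in members included the share over all windows for each motif except Tead, whose interval of 4.19 to 15.3% began above 3.85%. The 8 Tead windows came from 5 genes, some with several overlapping windows. Counted once for each gene, a setting added after the values were seen, Tead was found in 5 of 86 genes (5.81%, interval 2.51 to 12.9%), which included the 4.47% of all 27025 genes with a window. In narrower regions the CTCF motif was found in 21 of 284 windows (7.39%, interval 4.89 to 11.0%), against 1.02% (interval 0.180 to 5.56%) in members. These intervals overlapped. The Tead interval in narrower regions also began above the share over all windows (6.69%, interval 4.32 to 10.2%). A higher Tead share was thus not particular to members. Intervals in narrower regions also began above it for the octamer (5.99%, 3.77 to 9.38%), Klf (24.3%, 19.7 to 29.6%) and CTCF, but not for the other motifs. Counted by gene, the Tead interval in narrower regions was 4.29 to 10.4% and included 4.47%. The Klf interval by gene was 19.5 to 29.7% and included the 19.7% of all genes. Those for the octamer (3.71 to 9.48%) and CTCF (5.18 to 11.7%) still began above the 1.97% and 2.82% of all genes.

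Small RNA genes gave a set of members with a known transcript. A tRNA gene was touched by 25 members (1.66%, interval 1.13 to 2.44%), against 69 narrower regions (0.383%, interval 0.303 to 0.485%). Per Mb of region there were 17.9 and 14.1 such regions, again a smaller gap than between the shares. The 25 members were 704 to 1543 bp wide with a median of 987 bp and touched 44 tRNA genes, and 12 of them touched 2 or more. On chromosome 13 lay 10 of them, among them members of 1125 and 781 bp next to the histone gene H4c8 with 3 and 2 tRNA genes. This count was not set against the share of all 408 tRNA genes on that chromosome. The widest, of 1543 bp at chr7:98814875-98816417 and 18.7 kb from Wnt11, held n-TPtgg8 and n-TPagg7. Members of 1419 bp near Cfap126 and of 1220 bp near Trim55 touched 4 tRNA genes each.

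Genes of small nuclear RNAs, the RNA parts of the splicing machinery, differed more. Of the 18 regions at this distance that touched a snRNA gene, 13 were members and 5 were narrower, with a median width of 840 bp and a range of 135 to 1269 bp. The 13 were 0.864% of members (interval 0.505 to 1.47%), and the 5 were 0.0278% of narrower regions (interval 0.0119 to 0.0650%). Per Mb this was 9.32 against 1.02 regions. They were grouped in a few places. On chromosome 1, members of 1269, 797 and 923 bp near Mreg and Pecr touched Gm25360, Gm23472 and Gm24497. On chromosome 3, members of 1176 and 741 bp near Fcgr1 held Gm24830 and Rnu1b1, a U1 gene, and members of 955 and 799 bp near BC107364 held Gm25890 and Gm22614. The neighbouring U1 gene Rnu1b2 lay in a narrower region of 599 bp. On chromosome 12, members of 1051, 1011, 801 and 1083 bp near Arhgap5, Eapp and Snx6 held 4 snRNA genes. Single members of 935 bp near Parp16 and of 879 bp near Tnfrsf9 held the U5 gene Rnu5g and Gm23405. tRNA and snRNA genes have near-identical copies elsewhere, so which copy was open is uncertain.

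MicroRNA hairpins in the RefSeq table lay within 2 kb of a member in 3 of 1005 cases. This count was not set against that for narrower regions. Narrower regions lay near hairpins too, such as 0.383 and 0.142 kb from Mir9-2 and Mir9-3. Mature sequences are given with the seed, bases 2 to 8, in capitals, since the seed pairs with target messages.
mmu-miR-1983, chr13:21896918-21897049 for the hairpin, minus strand: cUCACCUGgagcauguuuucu
mmu-miR-6413, chr10:20297581-20297688 for the hairpin, minus strand: uGGCUCAGaagagcagguagu
mmu-miR-7b-5p, chr17:56242988-56243098 for the hairpin, plus strand: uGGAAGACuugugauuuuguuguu
Mir1983 lay inside a member of 748 bp, 47.8 kb from Zfp184. The tRNA gene n-TItat14, at chr13:21896938-21897031, lies within the limits of this hairpin. The same member is thus among the 25 that touched a tRNA gene. Mir6413 lay 0.391 kb from a member of 768 bp, 11.7 kb from Bclaf1. Mir7b lay 0.679 kb from a member of 729 bp, 14.5 kb from Fem1a. The 3 seeds differ. The other mouse miR-7 genes had no member beside them: the nearest regions to Mir7-1 and Mir7-2 lay 4.44 and 4.65 kb away and were 289 and 465 bp wide.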

How the data were processed

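ATAC-seq reads of 8 libraries were processed by the authors into 1 deposited list of regions. Tools listed in the submitters' processing notes were MACS2 2.1.1, Bowtie2, cutadapt, SAMtools, Picard and bedtools, with the build GRCm38 (mm10). Their parameters, any Tn5 shift and how libraries were joined were not stated in the sources used here. The list the authors deposited gives chromosome, start and end in base pairs and no value for any region, so depth is unknown and no comparison between groups was possible.

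Regions were set against outer gene limits of RefSeq GRCm38.p6 (49943 genes, 21887 of them protein-coding) with Python 3.11.15 and pandas 2.3.3. Distance was the difference between the nearest bases, and 1 bp counted as overlap. Coordinates count from 1. Start windows of 300 bases covered 17492 coding genes and gave strands. The planned motif search over whole regions was not made without a genome sequence, and RefSeq start windows were searched instead. Shares have 95% Wilson intervals, and no test was made between regions. The overlap code, tested on simulated data, gave 0 disagreements in 2000 queries. All 280 genes of the 12 lists matched by symbol. Members, lists and motifs were chosen with earlier results of these data known. Genes named were the nearest coding and other genes of the 20 widest members, all core pluripotency genes with members, the 3 widest members of each other list, the 10 genes with the most members and those at the limits of the rule. Others were picked after their values were seen. A few values of listed genes are not reported here.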

Additional observations from a re-analysis of the deposited data

How the results depend on the processing

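No paired analysis was possible because the list gives coordinates without a measurement for any library, so leaving out a replicate was not possible either. The motif alternatives over whole regions were not run. Of 40 alternatives, 25 stayed within 1.5 times the reported count or inside the reported interval, and 15 moved. The number of members was 3627, 2417, 968 and 389 with width limits of 500, 600, 800 and 1000 bp, and 691 with a lower distance limit of 50 kb. The share with another region within 10 kb was 48.4% at 20 to 200 kb and 55.6% at 10 to 100 kb, and 34.0%, 75.1% and 89.4% with windows of 5, 25 and 50 kb. The share whose nearest gene was open at an end was 68.7% with a width limit of 500 bp, and 60.9% and 71.2% with end windows of 500 bp and 2 kb. The share near a gene of another type was 33.4% within 5 kb. The share near a listed gene was 6.98% when any listed gene within 200 kb counted. Several contrasts kept their direction in the main setting and in each of 5 alternatives for width, distance and crowded windows. In these, members had the lower shares with a neighbour within 10 kb and with a nearest gene open at an end. The contrast in open ends did not hold in settings outside these alternatives. At 100 to 200 kb members were higher, at 71.6% against 69.8%, and with each gene counted once the shares were 65.7% and 66%. Members had the higher shares on the X, with a lncRNA start and with a tRNA or snRNA gene. Each setting still compared wide with narrow regions, and a wide region touches more features by its width alone. The kept direction for starts and small RNA genes is thus no separate support. Per Mb in the main setting, regions with a start numbered 56.6 and 53.4, and those with a tRNA gene 17.9 and 14.1. Those with a snRNA gene numbered 9.32 and 1.02. The share near a listed gene was higher in members in the main setting but lower at 1000 bp, at 2.83% against 3.27%. The cause of these moves was not tested, beyond the fewer or more regions each setting keeps. With each gene counted once, an alternative chosen after seeing the data, the shares of all 9 motifs stayed inside their reported intervals.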
